A study of Mus musculus with 16 samples.

Results

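Glycolysis, gluconeogenesis and glycogen storage were followed in mouse liver through 33 genes, chosen by name as glucose transporters, hexokinases and their regulator, enzymes of the pathways and their regulatory subunits. All 33 were found among the 27446 entries of the expression table and all 33 passed the filter on low counts that left 14308 entries to test. They were listed by name, with earlier results of these data known. Total liver RNA was sequenced from wild-type C57BL/6 mice in 2 groups. The emodin group (8 libraries) received emodin, an anthraquinone of rhubarb, at 400 mg/kg into the stomach for 3 weeks in sodium carboxymethyl cellulose (0.5%). The vehicle group (8 libraries) received that carrier alone. Both groups had been acclimated for 7 days. The sources used here give neither age nor sex nor whether the mice were fasted before the livers were taken, and they do not say whether libraries are separate animals, so p-values measure the spread between libraries.

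The liver takes glucose up after a meal and releases it between meals. GLUT2 (Slc2a2) carries glucose both ways across the hepatocyte membrane. Glucose is trapped as glucose 6-phosphate, and from there it enters glycogen, glycolysis or, through glucose-6-phosphatase (G6pc), the blood. Several steps have a liver isozyme (Pklr, Pfkl, Pygl, Gys2) and another isozyme that serves muscle or most other tissues (Pkm, Pfkm, Pygm, Gys1). Insulin, glucagon, glucocorticoids and the glucose sensor ChREBP set the amounts of many of these mRNAs.

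Levels are given in CPM, the estimated counts scaled by library size and its TMM factor, and fold changes are emodin over vehicle on a log2 scale with the standard error (SE) of the edgeR fit. An entry was called when the Benjamini-Hochberg adjusted p of edgeR's quasi-likelihood test, over all entries tested, was under 0.05. The libraries held 28.3 to 48.2 M estimated counts. Emodin libraries were deeper, with 38.6 ± 6.91 M against 32.3 ± 3.16 M in vehicle libraries (SD, n = 8 each; p = 0.035 by a two-sided exact permutation test over 12870 assignments). The 33 genes together took 0.915 ± 0.117% of the counts in emodin livers and 0.952 ± 0.0478% in vehicle livers (SD, n = 8 each).

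Emodin 7 and vehicle 2 stood apart before any test, because they held RNA of skeletal muscle. Acta1, skeletal muscle actin, was at 243 CPM in emodin 7 and 1000 CPM in vehicle 2, with no more than 2 counts in any of the other 14 libraries. Ckm, muscle creatine kinase, was at 117 CPM in emodin 7 and 448 CPM in vehicle 2, with 0 counts elsewhere. Of the 6 muscle markers, the heart genes Myh6 and Tnnt2 did not exceed 2.61 CPM in these libraries. Muscle also expresses Hk2, Aldoa and Pkm, so results are given for all 16 libraries and, where a call changes, for the 14 libraries without this pair.

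**Figure D1:**
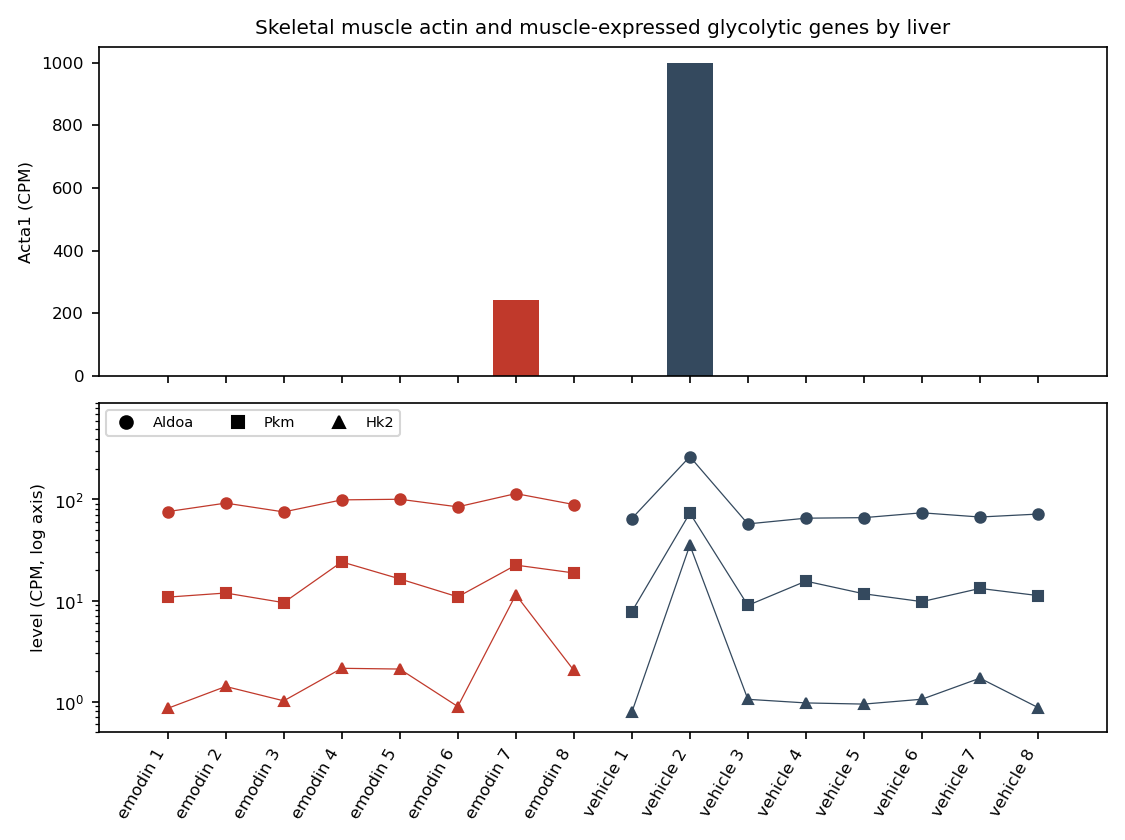
Level of Acta1 (upper panel, CPM, linear axis) and of Aldoa, Pkm and Hk2 (lower panel, CPM, log axis) in each of the 8 emodin and 8 vehicle livers; each bar or point is 1 library. Acta1 was seen in emodin 7 (243 CPM) and vehicle 2 (1000 CPM), where Hk2 was at 11.4 CPM in emodin 7 and 35.3 CPM in vehicle 2.

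Of the 33 genes, 5 were called (15.2%), close to the 13.2% of all entries tested. Slc2a1 and Ldha were higher in emodin livers, and Slc2a2, Gckr and Pfkfb3 were lower. The 2 higher genes made up 6.06% of the 33 against 7.70% of all entries, and the 3 lower genes 9.09% against 5.47%. An unadjusted p under 0.05 was reached by 11 genes (33.3%), against 29.7% of all entries. The median log2 fold change was -0.12 over the 33 genes and 0.01 over all entries tested. The share of called genes was thus near the background, and the results below concern single genes. In 1 gene, Ldha, all emodin livers lay above all vehicle livers (0.937% of all entries), and in 0 genes below them (1.03%). Without emodin 7 and vehicle 2 the called genes numbered 6, Aldoa being the added one, against 14.2% of all entries, with 3 higher (8.31% of all entries) and 3 lower (5.85%).

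**Figure D2:**
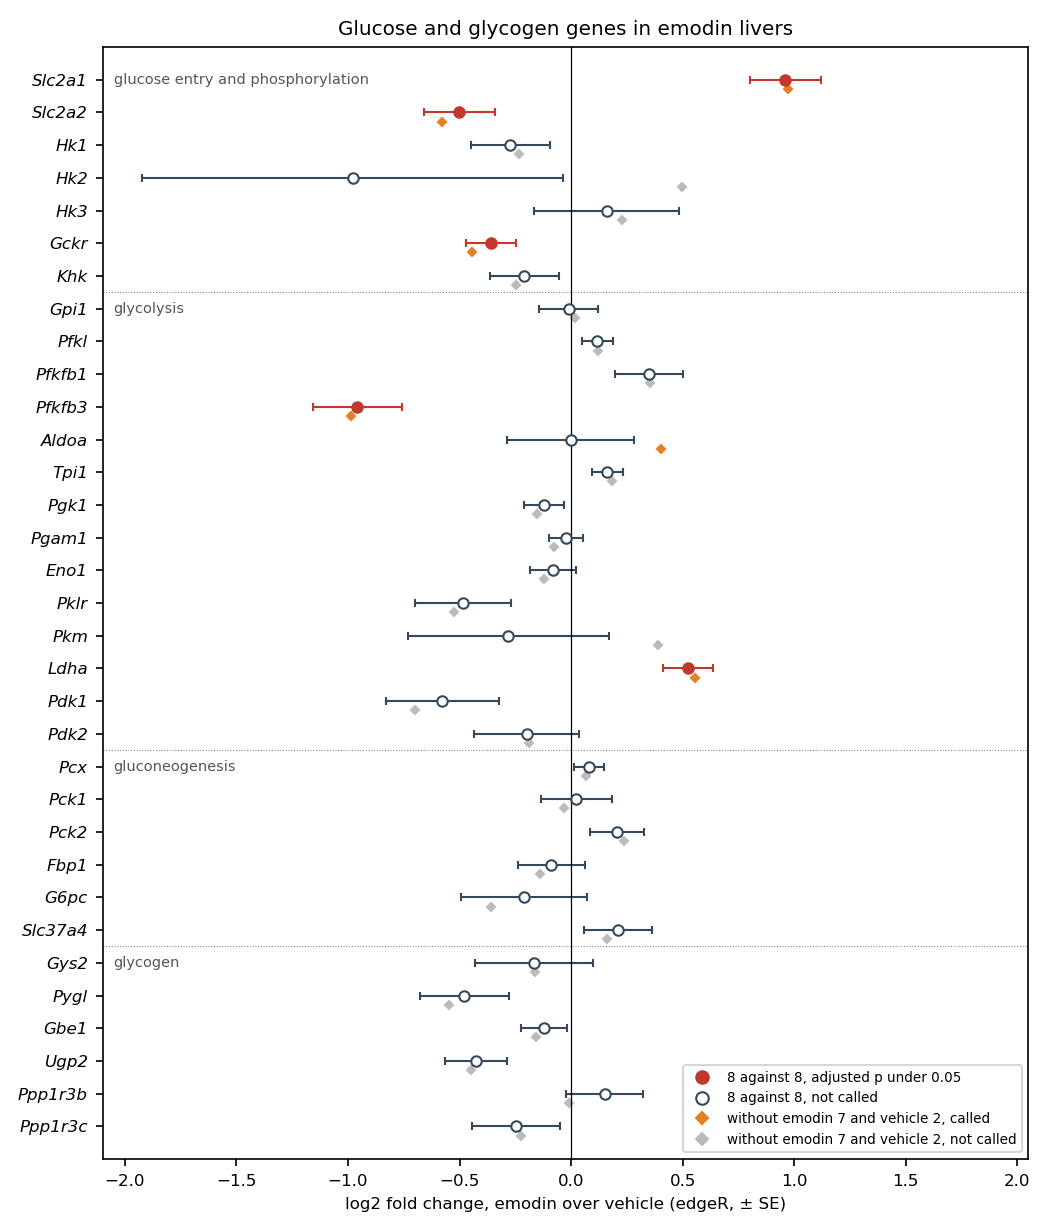
Log2 fold change, emodin over vehicle, of the 33 genes by role (circles, edgeR estimate with bars of ± 1 SE, 8 against 8 livers; filled red, adjusted p under 0.05). Diamonds give the estimate without emodin 7 and vehicle 2 (orange, called); they lie far from the circles for Hk2, Aldoa and Pkm.

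The promoters of the 3 genes with the most stable calls are shown because they carry different numbers of a short motif that is the core of the response element of hypoxia-inducible factors, ACGTG, which also lies inside the E-box CACGTG bound by ChREBP and other factors. RefSeq windows were matched for 31 of the 33 genes (Gys2 and Ppp1r3b had none), and the 250 bases before each start were searched on both strands. The sequences are those of RefSeq on GRCm38.p6, 5′ to 3′ on the strand of the gene, with ACGTG on either strand in capitals.
Slc2a1, chr4:119108495-119108744, plus strand: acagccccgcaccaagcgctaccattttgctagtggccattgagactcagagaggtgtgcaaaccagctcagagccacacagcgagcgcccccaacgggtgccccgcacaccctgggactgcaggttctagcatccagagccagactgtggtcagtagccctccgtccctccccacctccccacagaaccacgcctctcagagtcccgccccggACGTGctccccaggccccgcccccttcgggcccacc
Ldha, first window, chr7:46845554-46845803, plus strand: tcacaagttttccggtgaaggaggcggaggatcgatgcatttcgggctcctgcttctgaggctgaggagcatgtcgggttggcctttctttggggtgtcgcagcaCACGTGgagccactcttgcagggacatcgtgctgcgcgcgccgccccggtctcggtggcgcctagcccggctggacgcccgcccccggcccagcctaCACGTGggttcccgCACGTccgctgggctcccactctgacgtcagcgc
Pfkfb3, first window, chr2:11553930-11554179, minus strand: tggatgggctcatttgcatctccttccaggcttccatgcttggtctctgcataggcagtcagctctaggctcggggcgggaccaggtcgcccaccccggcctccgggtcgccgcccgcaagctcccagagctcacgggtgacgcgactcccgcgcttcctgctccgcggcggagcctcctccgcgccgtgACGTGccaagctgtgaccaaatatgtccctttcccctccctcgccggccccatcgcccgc
Pfkfb3, second window, chr2:11502091-11502340, minus strand: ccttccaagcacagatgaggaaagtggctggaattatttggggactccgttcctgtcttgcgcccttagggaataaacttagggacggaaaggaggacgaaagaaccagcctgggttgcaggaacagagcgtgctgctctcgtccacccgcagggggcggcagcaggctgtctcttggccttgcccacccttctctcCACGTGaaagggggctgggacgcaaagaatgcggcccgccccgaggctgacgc

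Slc2a1 held 1 match, 36 bases before its start. The first Ldha window held the E-box at 145 and 48 bases before its start, each of which counts as a match on both strands, and a further match at 34. A second Ldha window (chr7:46846832-46847081), not printed here, held neither ACGTG nor CACGTG. Pfkfb3, which was lower in emodin livers, held a match at 60 bases in its first window and the E-box at 53 bases in its second, so the motif stood before genes that moved in opposite directions. The windows of Slc2a2 and Gckr held none of the 4 motifs searched. Some genes have several windows. Of the 49 windows of the 31 genes, 34.7% held ACGTG, against 16.6% of 32851 windows, and 12.2% held CACGTG, against 6.02%. Windows of equal sequence within a gene were counted once among the 32851 but not among the 49. Counting by gene avoids this but favours genes with more windows, and the 31 genes had 49 windows against 32851 for 27025 genes. By gene, 48.4% of the 31 genes held ACGTG, against 18.5% of the 27025. CACGTG was held by 19.35% of the 31 genes, against 6.86%. TGACG, part of the element bound by CREB, stood in 20.4% of the 49 windows against 17.8% of the 32851, and TGTTTAC, bound by forkhead factors, in 0 of 49 against 3.17%. A match describes the letters of these windows only.

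Of 7 genes of glucose entry and phosphorylation 3 were called (42.9%, against 13.2% of all entries), with Slc2a1 higher and Slc2a2 and Gckr lower, both of the last marginal. Slc2a1 encodes GLUT1, the glucose transporter of most cells outside the liver parenchyma. It lay between 7.23 and 12.9 CPM in emodin livers, with a median of 9.71 CPM, against 3.52 to 7.32 CPM in vehicle livers, with a median of 4.61 CPM. Emodin 7 alone, at 7.23 CPM, was not above every vehicle liver, and vehicle 6, 7 and 8 were the highest of their group. The log2 fold change was 0.96 ± 0.16 (SE, adjusted p = 0.00151 by edgeR, 8 of 8 emodin livers above the vehicle median), a 1.94-fold difference. The call was kept without any one of the 16 libraries. Slc2a1 lies at chr4:119108711-119137983 (mm10, plus strand, GENCODE M21).

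Slc2a2 was 1.42-fold lower in emodin livers. Its levels ran from 209 to 475 CPM in emodin livers (median 359 CPM) and from 442 to 532 CPM in vehicle livers (median 519 CPM). Emodin 4, 5, 2 and 8 held the lowest levels, at 209, 240, 273 and 291 CPM, whereas emodin 1, 3 and 7 lay within the vehicle range. The log2 fold change of -0.50 ± 0.16 (SE) passed narrowly (adjusted p = 0.0462 by edgeR). It stayed under the threshold only without emodin 1, 3, 6 or 7 (adjusted p 0.0238 to 0.043) and missed it without any one of the other 12 libraries, which are emodin 2, 4, 5 and 8 and each vehicle library (0.053 to 0.09). Without emodin 7 and vehicle 2 together it was called (-0.58 ± 0.17, SE, adjusted p = 0.0364 by edgeR).

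Both transporters were also compared per length. Per kilobase of merged exons, Slc2a1 made up 2.59 to 9.21% of the summed level of Slc2a1 and Slc2a2 in emodin livers (median 4.63%) and 1.09 to 2.27% in vehicle livers (median 1.52%). Every emodin liver was above every vehicle liver, and Slc2a2 remained the more abundant by far in all 16. The share combines a gene called higher with a gene called lower, so its separation is not a result apart from those calls. In whole liver, fewer cells of a type and less RNA per cell cannot be told apart, and the same holds for which cells carried Slc2a1. Summed markers of endothelial cells were at 212 to 325 CPM in emodin livers and 290 to 394 CPM in vehicle livers, with 2 of 8 lower (Ehd3 and Kdr) and 0 higher. Dpp4 (118 CPM on average) and Ehd3 (49.5 CPM) led that sum, and which cells carried Dpp4 was not tested. Macrophage markers summed to 189 to 510 CPM in emodin livers and 125 to 554 CPM in vehicle livers, with 0 of 8 called. Erythroid markers summed to 187 to 438 CPM in emodin livers and 232 to 767 CPM in vehicle livers, with 0 of 5 tested called.

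Gckr encodes a regulatory protein of glucose phosphorylation that resides in the hepatocyte nucleus. It ranged from 83.6 to 145 CPM in emodin livers (median 115 CPM) and from 128 to 162 CPM in vehicle livers (median 142 CPM). Emodin 4, 8 and 5 were lowest, at 83.6, 85.8 and 91.8 CPM, and emodin 7 was the only emodin liver above the vehicle median. The log2 fold change was -0.36 ± 0.11 (SE, adjusted p = 0.0404 by edgeR). The call held without emodin 1, 3, 6 or 7 or vehicle 2 (adjusted p 0.0147 to 0.0456) and was lost without any one of the other 11 libraries (0.0537 to 0.0774). Without emodin 7 and vehicle 2 together, all 7 remaining emodin livers were below all 7 remaining vehicle livers (-0.44 ± 0.11, SE, adjusted p = 0.0181 by edgeR), a separation found in 1.76% of all entries tested in that fit.

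Of the high-affinity hexokinases none was called. Hk1 had a log2 fold change of -0.27 ± 0.18 (SE) and Hk3, a hexokinase of blood cells, 0.16 ± 0.33 (SE). Hk2, the hexokinase of muscle and fat, was at 0.858 to 2.14 CPM in the other 7 emodin livers and 0.786 to 1.71 CPM in the other 7 vehicle livers, against 11.4 CPM in emodin 7 and 35.3 CPM in vehicle 2. Its log2 fold change was -0.98 ± 0.94 (SE) with all libraries and 0.50 ± 0.26 (SE, adjusted p = 0.213 by edgeR) without that pair. Khk, ketohexokinase of fructose metabolism, had -0.21 ± 0.15 (SE), with emodin 8, 5 and 4 at 151, 161 and 167 CPM and every vehicle liver at 223 CPM or more.

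**Figure D3:**
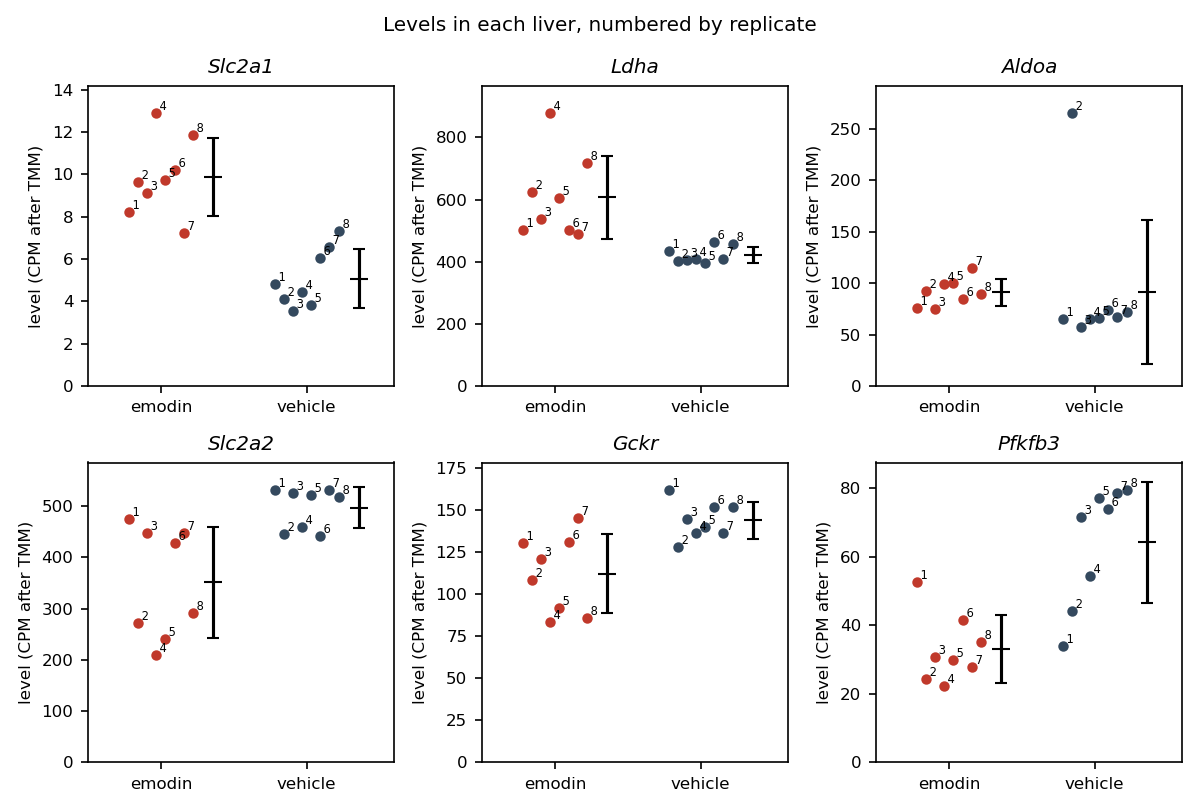
Levels (CPM after TMM) of Slc2a1, Ldha, Aldoa, Slc2a2, Gckr and Pfkfb3 in each emodin (red) and vehicle (dark) liver, numbered by replicate, with mean ± SD of 8 livers in black; axes start at 0. Ldha separates the groups fully, at 488 to 878 CPM in emodin and 395 to 462 CPM in vehicle livers, and Aldoa does so once emodin 7 and vehicle 2 are set aside.

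Among 14 genes of glycolysis and pyruvate entry, Ldha was higher, Pfkfb3 was lower and 12 were not called, with a median log2 fold change of -0.05. Ldha encodes the lactate dehydrogenase A subunit, which interconverts pyruvate and lactate. It lay between 488 and 878 CPM in emodin livers (median 572 CPM) and between 395 and 462 CPM in vehicle livers (median 410 CPM). All 8 emodin livers were above all 8 vehicle livers, and emodin 4 and 8 were highest, at 878 and 718 CPM. The log2 fold change was 0.52 ± 0.11 (SE, adjusted p = 0.00809 by edgeR), a 1.44-fold difference, and the call was kept without any one library. Ldha lies at chr7:46841475-46855627 (mm10, plus strand) and made up a median of 99.5% of Ldha plus Ldhb per kilobase in emodin livers and 99.2% in vehicle livers.

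Pfkfb3 encodes a bifunctional enzyme that makes fructose 2,6-bisphosphate, the activator of phosphofructokinase. It was at 22.3 to 52.5 CPM in emodin livers (median 30.3 CPM) and at 33.9 to 79.5 CPM in vehicle livers (median 72.8 CPM). Vehicle 1 and 2, at 33.9 and 44.2 CPM, were the low vehicle livers, and emodin 1, at 52.5 CPM, was the high emodin liver. With a log2 fold change of -0.96 ± 0.20 (SE, adjusted p = 0.00691 by edgeR) its level was 1.94-fold lower, in 8 of 8 emodin livers below the vehicle median, and the call was kept without any one library. Pfkfb1, the liver enzyme of the same family, was at 29.3 to 62.1 CPM in emodin livers (median 46.8 CPM) and 27.99 to 47.7 CPM in vehicle livers (median 32.4 CPM). Its log2 fold change of 0.35 ± 0.15 (SE, adjusted p = 0.138 by edgeR) was not called, so 1 isozyme passed the test and the other did not, with opposite signs.

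Aldoa, aldolase A, depended on the libraries with muscle RNA. With all 16 libraries its log2 fold change was 0.00 ± 0.29 (SE, adjusted p = 0.997 by edgeR), at 75.3 to 114 CPM in emodin livers (median 90.6 CPM) and 57.3 to 265 CPM in vehicle livers (median 66.6 CPM). Vehicle 2, at 265 CPM, was 1 of 8 vehicle livers and set the whole upper range, since the next vehicle liver was at 73.8 CPM. Without vehicle 2 alone the change was 0.46 (adjusted p = 0.0065 by edgeR). Without emodin 7 and vehicle 2, the 7 emodin livers (75.3 to 100.5 CPM) were all above the 7 vehicle livers (57.3 to 73.8 CPM), at 0.40 ± 0.08 (SE, adjusted p = 0.00768 by edgeR). In that fit 1.54% of all entries separated the same way. DESeq2, which replaced the outlying count of vehicle 2 by one from the trimmed mean of the libraries, gave 0.42 (adjusted p = 0.00039).

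Neither of the 2 pyruvate kinase genes was called. Pklr, the liver and red cell enzyme, lay between 70.7 and 270 CPM in emodin livers (median 141 CPM) and between 175 and 251 CPM in vehicle livers (median 196 CPM). Emodin 5, 4 and 8 were lowest, at 70.7, 91.5 and 102 CPM, and emodin 1 was the highest of all 16 livers. The log2 fold change was -0.49 ± 0.21 (SE, adjusted p = 0.139 by edgeR), and it passed only without emodin 1 (-0.67, adjusted p = 0.0208). Hcn3 overlaps 22.0% of the exon bases of Pklr, and whether the counts used strand is not stated. Pkm was at 9.53 to 24.1 CPM in the 7 emodin livers other than emodin 7 and 7.77 to 15.6 CPM in the 7 vehicle livers other than vehicle 2, with 0.39 ± 0.21 (SE, adjusted p = 0.222 by edgeR) without that pair and -0.28 ± 0.45 (SE) with it. As a share of pyruvate kinase mRNA per kilobase, Pkm had a median of 7.11% in emodin livers and 3.81% in vehicle livers, with overlapping ranges.

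Between these steps the changes were small. Tpi1, triosephosphate isomerase, was at 262 to 337 CPM in emodin livers (median 304 CPM) and 254 to 316 CPM in vehicle livers (median 267 CPM), with vehicle 2 the highest vehicle liver. Its log2 fold change of 0.16 ± 0.07 (SE, adjusted p = 0.131 by edgeR) was not called, nor was it without emodin 7 and vehicle 2 (0.18 ± 0.07, SE, adjusted p = 0.0987), but limma-voom with quality weights called it (adjusted p = 0.0334). Gpi1, Pfkl, Pgk1, Pgam1 and Eno1 had log2 fold changes between -0.12 and 0.12, none with an unadjusted p under 0.05. Gapdh, which stands outside the 33 genes, was at 35.7 to 187 CPM in emodin livers and 36.3 to 75.4 CPM in vehicle livers (0.52 ± 0.27, SE, adjusted p = 0.199 by edgeR). Gapdh, Ldha, Aldoa, Eno1, Pgam1, Pgk1, Tpi1 and Pkm have processed pseudogenes of near-identical sequence, and how shared reads were counted is not given in the sources used here, so their absolute levels are uncertain.

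The kinases that switch off pyruvate dehydrogenase were not called, although some emodin livers held low levels. Pdk1 ranged from 23.4 to 94.2 CPM in emodin livers (median 59.2 CPM) and from 79.7 to 105 CPM in vehicle livers (median 86.7 CPM). Emodin 8, 4, 5 and 2 were at 23.4, 29.3, 37.7 and 50.3 CPM, while emodin 1 and 7 were at 93.7 and 94.2 CPM. For Pdk1 the log2 fold change was -0.58 ± 0.25 (SE, adjusted p = 0.138 by edgeR). Pdk2 had -0.20 ± 0.24 (SE), with 27.7 CPM in emodin 8 and 31.0 CPM in emodin 4 against 63.5 CPM or more in vehicle livers. Pdk4, a kinase outside the 33 genes that is induced in fasting, was at 66.9, 64.6, 47.7, 45.4 and 34.5 CPM in emodin 2, 5, 4, 8 and 7, at no more than 3.75 CPM in emodin 1, 3 and 6, at 53.2 CPM in vehicle 2 and at 4.58 to 13.1 CPM in the other vehicle livers (1.39 ± 0.78, SE, adjusted p = 0.249 by edgeR). Emodin 7 and vehicle 2 are the libraries with muscle RNA. Without them Pdk4 had 2.26 ± 0.76 (SE, adjusted p = 0.0625 by edgeR) and was not called. Of the 7 remaining emodin livers, 4 lay above and 3 below every remaining vehicle liver.

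None of the 6 genes of gluconeogenesis was called, and none had an unadjusted p under 0.05. Their log2 fold changes ran from -0.21 for G6pc to 0.21 for Slc37a4, with a median of 0.05. Pck1, the cytosolic phosphoenolpyruvate carboxykinase, was the most abundant of all 33 genes per kilobase and lay between 2101 and 4868 CPM in emodin livers and between 2351 and 4188 CPM in vehicle livers (0.02 ± 0.16, SE). Pck1 held at least 99.9% of carboxykinase mRNA per kilobase in every liver, Pck2 being the mitochondrial enzyme (0.21 ± 0.12, SE). Pcx, pyruvate carboxylase, was at 253 to 327 CPM in emodin livers and 271 to 311 CPM in vehicle livers (0.08 ± 0.07, SE).

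G6pc, the catalytic subunit of glucose-6-phosphatase, differed widely between emodin livers. It was at 204 CPM in emodin 4, 213 CPM in emodin 8 and 346 CPM in emodin 5, below every vehicle liver, and at 662 to 775 CPM in emodin 1, 6 and 7. Vehicle livers ran from 397 to 890 CPM. For G6pc the log2 fold change was -0.21 ± 0.28 (SE, adjusted p = 0.653 by edgeR). Slc37a4, the transporter that carries glucose 6-phosphate to that enzyme, was at 104 CPM in emodin 8 and 122 CPM in emodin 4 and above every vehicle liver (173 CPM at most) in 5 emodin livers. Fbp1, fructose-1,6-bisphosphatase, had the same ends, with 381 CPM in emodin 8 and 458 CPM in emodin 4 but 773 to 858 CPM in emodin 1, 3, 6 and 7, against 595 to 743 CPM in vehicle livers. For Slc37a4 and Fbp1 the emodin livers lay on both sides of the vehicle range, whereas for G6pc none lay above it.

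None of the 6 glycogen genes was called either, although 5 of 6 had a negative sign and the median was -0.21. Ugp2, which makes UDP-glucose for glycogen synthesis, came nearest. It lay between 262 and 530 CPM in emodin livers (median 458 CPM) and between 454 and 681 CPM in vehicle livers (median 602 CPM), with all 8 emodin livers below the vehicle median and 4 below every vehicle liver. For Ugp2 the log2 fold change was -0.43 ± 0.14 (SE, adjusted p = 0.0516 by edgeR). It crossed the threshold without emodin 1, 3, 6 or 7 or vehicle 4 or 6 (adjusted p 0.0401 to 0.049) and not without any other single library (0.066 to 0.0963).

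Pygl, the liver glycogen phosphorylase that frees glucose 1-phosphate, was at 163 to 503 CPM in emodin livers (median 296 CPM) and 371 to 473 CPM in vehicle livers (median 443 CPM). Emodin 4, 8, 5 and 2 were lowest, at 163, 189, 218 and 225 CPM, and emodin 1 was above every vehicle liver. The log2 fold change was -0.48 ± 0.20 (SE, adjusted p = 0.122 by edgeR), and without emodin 1 it passed (-0.61, adjusted p = 0.037). Gys2, the liver glycogen synthase, was not called (-0.17 ± 0.27, SE, adjusted p = 0.714 by edgeR). It was at 87.4 CPM in emodin 8 and 105 CPM in emodin 4, against 265 to 348 CPM in vehicle livers, and at 376 to 434 CPM in emodin 1, 3 and 6. The branching enzyme Gbe1 had -0.12 ± 0.10 (SE), and the phosphatase targeting subunits Ppp1r3b and Ppp1r3c had 0.15 ± 0.17 and -0.25 ± 0.20 (SE).

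**Figure D4:**
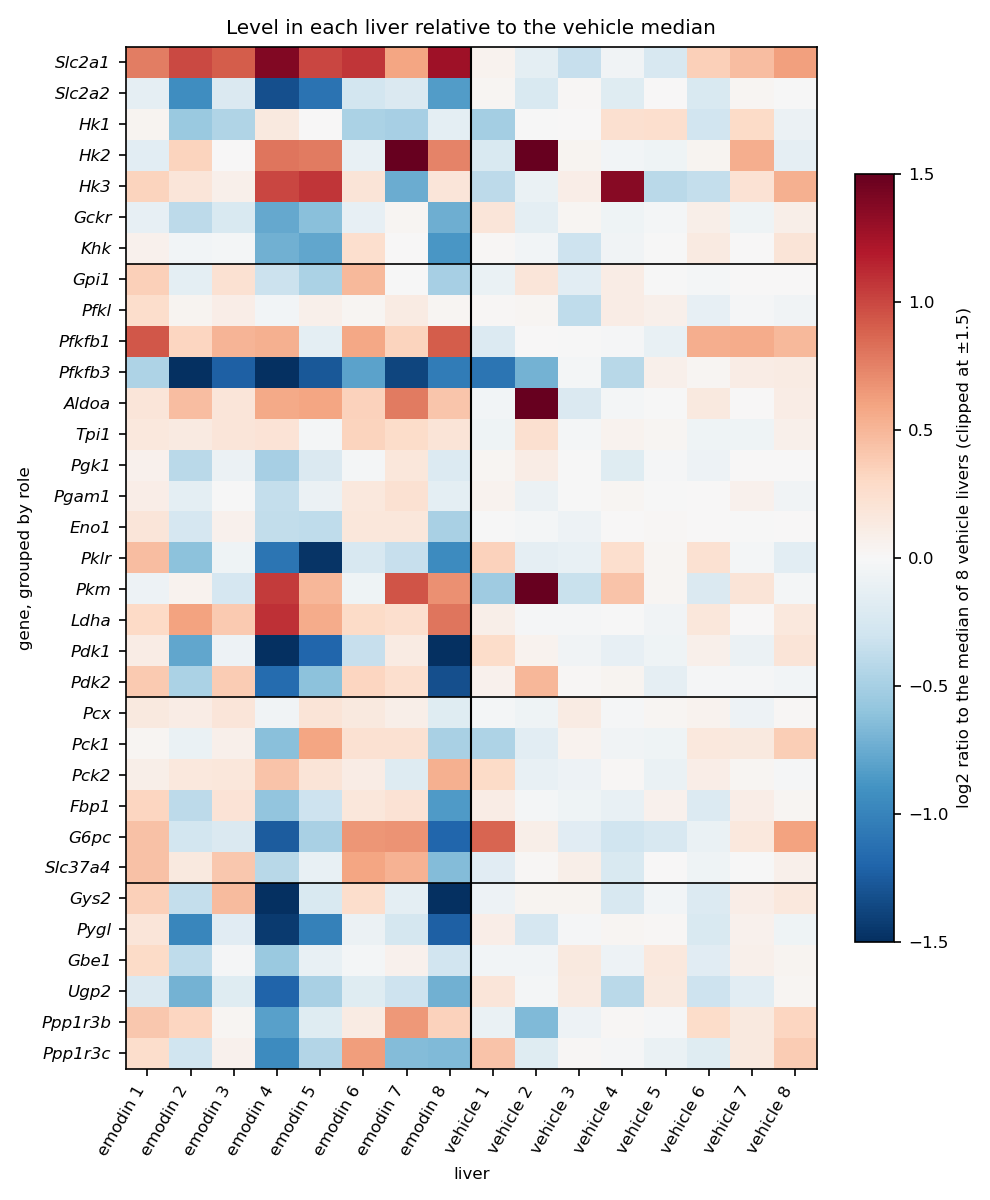
Log2 ratio of each of the 33 genes in each liver (columns, emodin left of the line, vehicle right) to the median of the 8 vehicle livers, grouped by role; colours are clipped at ± 1.5. Emodin 4 and 8 are blue over most rows of gluconeogenesis and glycogen, while emodin 1 and 6 are mostly pale red there, and Slc2a1 and Ldha are red in all emodin livers.

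Emodin livers thus varied more among themselves than vehicle livers did in most of these genes. The coefficient of variation (SD over mean) was larger in emodin livers for 26 of the 33 genes, with a median of 26.5% in emodin livers and 10.4% in vehicle livers. Over all entries tested it was larger in emodin livers for 69.8%, with medians of 21.3% in emodin and 14.9% in vehicle livers. Emodin 4 held the lowest of 16 levels for 12 of the 33 genes and emodin 8 for 9, whereas emodin 1 held the highest for 7 and the lowest for 0. How often each liver held the lowest level over all entries was not counted. Emodin 8 and 4 also had the lowest limma-voom quality weights (0.276 and 0.376) and the highest TMM factors (1.16 and 1.13). Their summed hepatocyte markers were the lowest of all 16 (78240 and 64940 CPM). With quality weights the median log2 fold change of the 33 genes was 0.03, against -0.11 with limma-voom without them. The median log2 ratio to the vehicle median over the 6 glycogen genes was -1.07 in emodin 4, -0.69 in emodin 8, -0.37 in emodin 2, -0.34 in emodin 5, -0.21 in emodin 7, 0.00 in emodin 3, 0.05 in emodin 6 and 0.28 in emodin 1.

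Acute phase and interferon genes, which were added after their values were seen, also differed between these livers. Lcn2, lipocalin 2, was at 1058, 596, 507 and 279 CPM in emodin 4, 2, 8 and 5, at 7.66 to 61.1 CPM in the other emodin livers and at 8.42 CPM or less in vehicle livers. Saa1, serum amyloid A, was at 4254, 3218, 2378 and 1166 CPM in emodin 2, 4, 8 and 5, at 61.4 to 395 CPM in the other emodin livers and at 23.4 to 66.7 CPM in vehicle livers. Isg15, an interferon-induced gene, was at 250, 208, 117 and 67.5 CPM in emodin 4, 8, 5 and 2 and at 7.33 CPM or less in every other liver. The livers with the lowest Slc2a2, Pdk1 and Pygl were these 4. They also held the highest Ldha, at 878, 718, 624 and 604 CPM in emodin 4, 8, 2 and 5. Other genes differed, as Pck1 (4868 CPM) and Pcx (327 CPM) were highest of all livers in emodin 5. These genes are examples, and how many of the glucose genes set these 4 livers apart was not counted. The part of the acute phase and interferon response in the changes of the glucose genes was not tested.

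**Figure D5:**
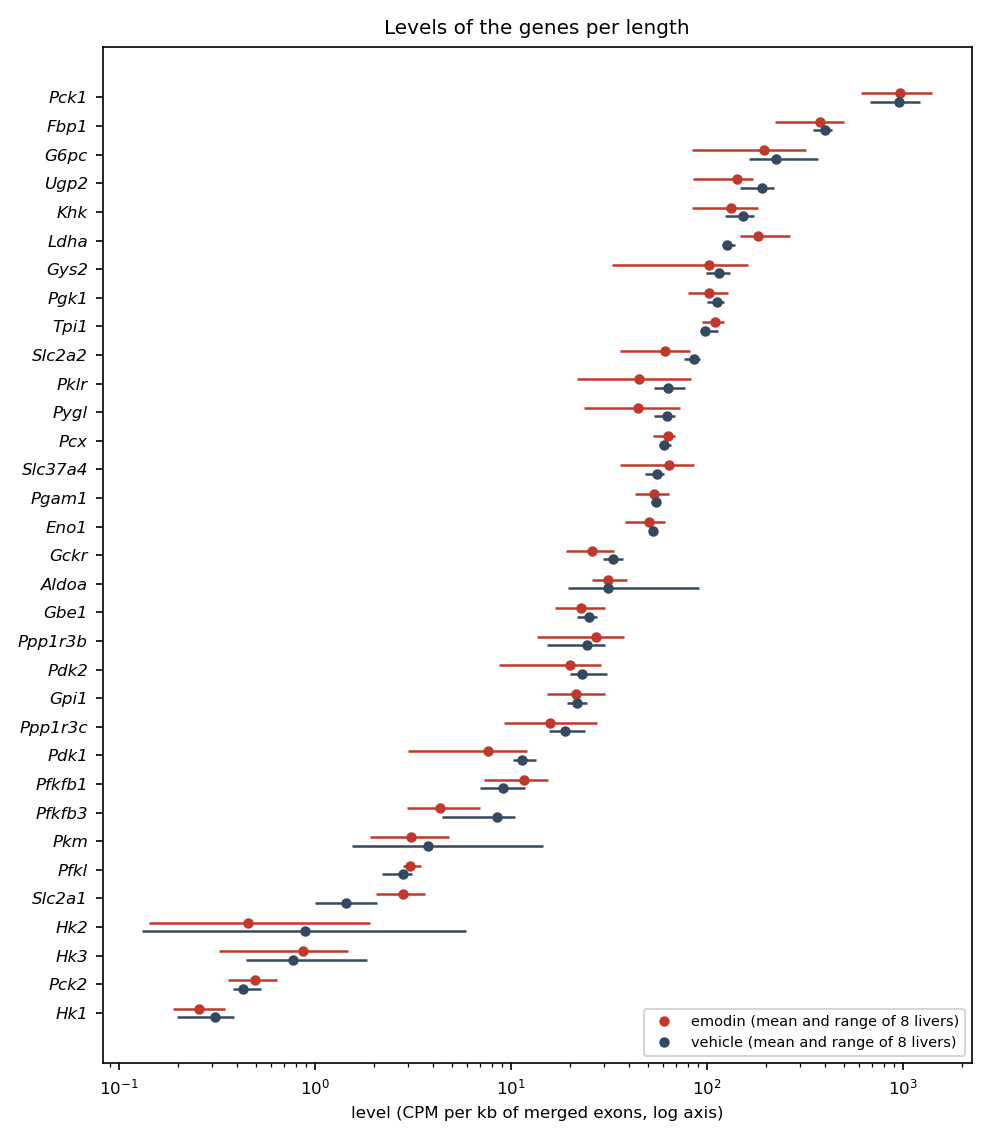
Level of each of the 33 genes per kilobase of merged exons (CPM per kb, log axis) in emodin (red) and vehicle (dark) livers; points are means and lines span the lowest to the highest of 8 livers, ordered by the vehicle mean. Pck1, Fbp1 and G6pc are the 3 highest genes in both groups, and the widest lines are those of Hk2 in both groups and of Pkm in vehicle livers.

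Ordered per kilobase of merged exons, Pck1 (972 ± 258 CPM per kb in emodin livers and 957 ± 160 in vehicle livers, SD, n = 8 each) and Fbp1 (378 ± 107 in emodin livers and 401 ± 30.2 in vehicle livers) stood highest. G6pc followed at 196 ± 96.2 CPM per kb in emodin livers and 227 ± 73.2 in vehicle livers, a range that overlapped that of Ugp2 in both groups. Ldha was the fourth in emodin livers, at 183 ± 40.6 CPM per kb, and the sixth in vehicle livers, at 128 ± 7.82, behind Ugp2 and Khk. Pck1 did not overlap Fbp1 in either group. At the low end stood Hk1, Pck2, Hk3 and Hk2, each under 1 CPM per kb on average in both groups, and in vehicle livers each of them overlapped its neighbour in range. The Hk2 averages were raised by emodin 7 and vehicle 2. Before division by length they were 2.73 CPM in emodin and 5.34 CPM in vehicle livers, against 1.49 and 1.06 CPM without that pair.

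Other genes of the pathways, from a list of 77 of which 76 were in the table and 67 were tested, gave 5 calls, 1 higher and 4 lower (7.46% of those tested, against 13.2% of all entries), with a median log2 fold change of -0.07. Dlat, the acetyltransferase subunit of pyruvate dehydrogenase, was at 35.1 to 58.4 CPM in emodin livers and 57.2 to 76.7 CPM in vehicle livers (-0.48 ± 0.11, SE, adjusted p = 0.0109 by edgeR). Slc2a9, a urate and fructose transporter, was at 17.5 to 39.0 CPM in emodin livers and 37.4 to 46.4 CPM in vehicle livers (-0.58 ± 0.14, SE, adjusted p = 0.0123). Both calls were kept without any one library, and all but 1 emodin liver lay below every vehicle liver. Gpd2, mitochondrial glycerol-3-phosphate dehydrogenase, was lower as well (-0.45 ± 0.12, SE, adjusted p = 0.0229 by edgeR).

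Stbd1, a protein that anchors glycogen to membranes, was lower (-0.27 ± 0.08, SE, adjusted p = 0.0369 by edgeR), and Pgm2, a phosphopentomutase, was higher (0.64 ± 0.21, SE, adjusted p = 0.0467). Both calls were marginal. That of Stbd1 was lost without any one of emodin 2, 4, 6, 7 and 8 and vehicle 3, 5, 6, 7 and 8 (adjusted p 0.0512 to 0.0774), and that of Pgm2 without any one of emodin 2, 4, 5 and 8 and vehicle 1, 2, 3, 5, 6, 7 and 8 (0.0585 to 0.106). The next in order were Tigar (0.28 ± 0.10, SE, adjusted p = 0.0738 by edgeR), Pdha1 (-0.31 ± 0.11, adjusted p = 0.0743), Dld (-0.18 ± 0.07, adjusted p = 0.0819) and Tkfc (0.30 ± 0.11, adjusted p = 0.0845), none of them called. Dlat, Pdha1 and Dld belong to the same complex, whose subunits Pdhb (0.03 ± 0.13, SE) and Pdhx (0.17 ± 0.08, SE) had positive values and were not called. Without emodin 7 and vehicle 2 together, Tigar (adjusted p = 0.0339 by edgeR) and Pdha1 (0.0436) passed and Stbd1 did not (0.0686). Tigar passed without vehicle 2 alone (adjusted p = 0.0261 by edgeR), Pdha1 without emodin 7 alone (0.029) and Tkfc without emodin 5 alone (0.0158).

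Other isoforms of these pathways were high in the same pair of libraries as the muscle markers, and were named after their values were seen. In emodin 7 and vehicle 2, Pfkm was at 36.7 and 108 CPM, Eno3 at 22.6 and 86.4 CPM, Ldhb at 11.3 and 58.6 CPM, Pygm at 29.1 and 127 CPM and Slc2a4 (GLUT4) at 8.13 and 39.6 CPM. In the other 14 livers none of these but Pfkm exceeded 4.75 CPM. Pfkm mRNA was not confined to that pair. Per kilobase it made up 53.4 to 91.0% of the summed level of Pfkl, Pfkm and Pfkp in vehicle livers (median 57.4%). In emodin livers its share was 34.5 to 77% (median 51.4%). These shares depend on the merged exon lengths, 3.34 kb for Pfkm against 6.675 kb for Pfkl. In CPM, without that division, Pfkl was above Pfkm in each of the other 14 livers. Gys1, the muscle glycogen synthase, was at 7.11 CPM in emodin 7 and 23.2 CPM in vehicle 2, and otherwise at 1.35 to 2.50 CPM in emodin livers and 0.590 to 1.47 CPM in vehicle livers. Its log2 fold change was -0.57 ± 0.77 (SE, adjusted p = 0.656 by edgeR) with all libraries, 1.32 without vehicle 2 alone (adjusted p = 0.0237) and 0.90 ± 0.22 (SE, adjusted p = 0.0184) without emodin 7 and vehicle 2. DESeq2, which replaced its count in vehicle 2, gave 1.22 (adjusted p = 0.00358). Without that pair the list gave 7 calls, 3 higher and 4 lower (10.4% of the 67, against 14.2% of all entries).

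Genes of hormone and nutrient control gave 10 calls among 41 tested of 42, 6 higher and 4 lower (24.4%, against 13.2% of all entries). Socs3, a feedback inhibitor of cytokine and insulin signalling, was at 4.15 to 24.4 CPM in emodin livers (median 12.8 CPM) and 3.45 to 6.09 CPM in vehicle livers (1.54 ± 0.29, SE, adjusted p = 0.00386 by edgeR), with emodin 1 alone inside the vehicle range. The insulin receptor substrate Irs1 was lower (-0.58 ± 0.14, SE, adjusted p = 0.013 by edgeR), though 30.9% of its exon bases are overlapped by Gm9747. The insulin receptor Insr was lower by less (-0.28 ± 0.08, SE, adjusted p = 0.0343) and the kinase Akt1 was higher (0.17 ± 0.05, SE, adjusted p = 0.0323).

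Mlx, the dimer partner of ChREBP, was at 31.5 to 36.5 CPM in emodin livers and 23.8 to 28.5 CPM in vehicle livers, with no overlap (0.36 ± 0.06, SE, adjusted p = 0.00086 by edgeR). Psmc3ip overlaps 19.3% of the exon bases of Mlx. Egln3, a prolyl hydroxylase that acts on hypoxia-inducible factors, was lower, at 10.1 to 16.6 CPM in emodin livers and 15.7 to 27.0 CPM in vehicle livers (-0.59 ± 0.13, SE, adjusted p = 0.00809 by edgeR). CREB family genes moved to both sides, with Creb3l3 (0.35 ± 0.09, SE, adjusted p = 0.0206 by edgeR) and the coactivator Crtc2 (0.29 ± 0.08, adjusted p = 0.0252) higher and Creb1 lower (-0.26 ± 0.07, adjusted p = 0.0298). Nr1h3, the oxysterol receptor LXR alpha, was higher (0.20 ± 0.06, SE, adjusted p = 0.0327 by edgeR).

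The smaller of these calls were marginal and were lost when certain single libraries of either group were left out. Among the fits without 1 library, Crtc2 was lost only without emodin 2 (adjusted p = 0.0515 by edgeR). Creb1 was lost without any one of emodin 2, 4 and 6 and vehicle 1, 3, 5 and 7 (0.055 to 0.0695), and Akt1 without any one of emodin 2 and 4 and vehicle 2, 6 and 7 (0.051 to 0.0634). Nr1h3 was lost without any one of emodin 2 and 5 and vehicle 1, 2 and 7 (0.0509 to 0.0657), and Insr without any one of emodin 2, 4, 6 and 8 and vehicle 1, 3, 5, 7 and 8 (0.0519 to 0.0765). Not called with all libraries were Adra1b (-0.41 ± 0.13, SE, adjusted p = 0.051 by edgeR), Hnf4a (0.36 ± 0.12, adjusted p = 0.0607), Prkaca (-0.20 ± 0.07, adjusted p = 0.0755) and Fgf21 (2.01 ± 0.78, adjusted p = 0.1). Adra1b passed without emodin 3, 6 or 7 (0.0361 to 0.0418), Hnf4a without emodin 8 or vehicle 8 (0.0374 to 0.0385) and Prkaca without emodin 7 (0.045). Without emodin 7 and vehicle 2 together, Adra1b passed (adjusted p = 0.0419 by edgeR) and Akt1 did not (0.0597).

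Igfbp1, a target of insulin and FOXO1, was at 121 to 789 CPM in emodin livers and 105 to 303 CPM in vehicle livers (0.84 ± 0.36, SE, adjusted p = 0.133 by edgeR), with emodin 5 and vehicle 8 the highest of their groups. Ppargc1a, a coactivator of gluconeogenic genes, had -0.33 ± 0.18 (SE, adjusted p = 0.237 by edgeR) and Srebf1, a driver of lipogenic genes, -0.05 ± 0.21 (SE, adjusted p = 0.89).

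The tissue label was met by the markers of hepatocytes. Their 10 genes, led by Alb (72020 CPM on average) and Cyp2e1 (7795 CPM), summed to 64940 to 116300 CPM in emodin livers (median 98410 CPM) and 109000 to 140400 CPM in vehicle livers (median 121700 CPM), and Alb was called lower (-0.51 ± 0.15, SE, adjusted p = 0.0310 by edgeR). The other 9 were not called, among them Asgr1 (0.02 ± 0.08, SE) and Apoa1 (-0.04 ± 0.09, SE). Slc2a2 and Gckr, which hepatocytes express, were lower beside Alb, and the part of hepatocyte RNA in their levels was not tested. Of the periportal list 1 of 8 was lower (Aldh1b1) and of the pericentral list 0 of 8, with sums led by Ass1 and Pigr and by Cyp2e1 and Rgn. Periportal sums were 2626 to 8003 CPM in emodin livers and 4698 to 6324 CPM in vehicle livers, and pericentral sums 5006 to 14460 CPM in emodin livers and 10230 to 13930 CPM in vehicle livers.

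Markers of other cells were low or not called. Stellate and fibroblast genes, led by Dcn and Reln, summed to 146 to 285 CPM in emodin livers and 182 to 419 CPM in vehicle livers, and bile duct genes, led by Spp1 and Sox9, to 34.0 to 174 CPM in emodin livers and 37.9 to 66.4 CPM in vehicle livers, with 0 called in both lists. Lymphocyte genes, led by Cd8a and Cd3g, summed to 2.37 to 6.46 CPM in emodin livers and 5.10 to 15.3 CPM in vehicle livers, and neutrophil genes, led by S100a9 and S100a8, to at most 4.20 CPM in emodin livers and 2.92 CPM in vehicle livers. Of the lymphocyte genes 1 of 8 was called lower, and of the neutrophil genes 0 of 2 tested were called. The fat list was carried by Adipor2, a receptor that liver also expresses and that was lower, with Lep at 0 in every library, and the pancreas list by Cela1, with Ins2, Gcg and Prss2 at 0.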

How the data were processed

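Liver RNA of 16 libraries, 8 emodin and 8 vehicle, was sequenced from 1 µg of total RNA each, per the labels' protocols. The table deposited by the authors holds estimated counts per gene, not scaled by length or depth. Its name speaks of FPKM, but 0 values were not whole and the column totals differ. The submitters' processing notes name Cufflinks 2.2.1, HTSeq 0.6.1, HISAT2, cutadapt 1.9.1 and SAMtools 0.1.19 and the mm10 build. Which of them made the counts, the annotation, the use of strand and the treatment of shared reads are not given in the sources used here.

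All 16 numeric columns were used. The quasi-likelihood test of edgeR 4.0.16 (R 4.3.3) was fitted robustly to group alone, after filterByExpr and TMM (factors 0.929 to 1.16), with Benjamini-Hochberg adjustment over 14308 entries. Values being whole, rounding changed nothing. The SE is the absolute log2 fold change over the square root of F. The code was tested on simulated data. Counts carry no molecular identifiers, so the spread between libraries was used throughout. Coordinates and exon lengths are from GENCODE M21 and promoters from RefSeq. Alternatives, with DESeq2 1.42.0 and limma 3.58.1 among the tools, are given at the end.

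The genes and lists were chosen with earlier results of these data known. Each called gene, or one of the 33 with an unadjusted p under 0.05, is given in full, and the others by range. Of both further lists, up to 12 called genes and the next 4 uncalled ones by p are named, and always Gapdh, Pdk4, Igfbp1, Ppargc1a and Srebf1, while some genes of the lists are not reported here. Of the 77 other pathway genes, Galt was not analysed here, and Eno2, Hkdc1, Fbp2, Phkg1, Ppp1r3a, Ppp1r3d, Ppp1r3f, Slc2a4 and Slc2a10 were under the filter, as was Glp1r of the hormone list. Aldoa has a second entry of 0 to 7 counts per library that was not tested.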

Additional observations from a re-analysis of the deposited data

Results flagged for a closer look

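In 26 of 144 groups of 8 livers checked, the highest or lowest liver lay farther from its nearest neighbour than Dixon's 95% limit allows, where chance flags about 1 group in 20. Of the 26, 13 are in genes named after their values were seen (Pfkm, Eno3, Ldhb, Pygm, Gys1, Slc2a4 and Isg15), for which that rate says nothing, and the other genes gave 13 in 126 groups, 8 of them in the 2 libraries with skeletal muscle RNA. In emodin 7 the values set apart were Hk2 (11.4 CPM), Pfkm (36.7 CPM), Eno3 (22.6 CPM), Ldhb (11.3 CPM), Pygm (29.1 CPM), Gys1 (7.11 CPM) and Slc2a4 (8.13 CPM). In vehicle 2 they were Hk2 (35.3 CPM), Aldoa (265 CPM), Tpi1 (316 CPM), Pkm (73.3 CPM), Pdk2 (98.3 CPM), Pdha1 (197 CPM), Pdk4 (53.2 CPM), Pfkm (108 CPM), Eno3 (86.4 CPM), Ldhb (58.6 CPM), Pygm (127 CPM), Gys1 (23.2 CPM) and Slc2a4 (39.6 CPM).

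Other livers stood apart in single genes. Gapdh was at 187 CPM in emodin 6, with the next emodin liver at 85.2 CPM. Igfbp1 was at 789 CPM in emodin 5, with the next at 304 CPM, and at 303 CPM in vehicle 8, with the next at 146 CPM. Hk3 (6.83 CPM) and Isg15 (7.33 CPM) were set apart in vehicle 4, which also had the highest summed macrophage markers of all livers (554 CPM). Eno1 was low in vehicle 3, at 275 CPM against 285 CPM or more in the other vehicle livers.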

How the results depend on the processing

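Of 12 other settings, 16 fits without 1 library and the fit without emodin 7 and vehicle 2 (the last chosen after seeing the data), Ldha and Pfkfb3 kept their call in all, and Slc2a1 in all but the filter at 10 CPM in 8 libraries, where it was not tested and 1 of the 33 genes was called higher. Slc2a2 and Gckr were lost with limma-voom quality weights, the rank-sum test and no filter on low counts, which each left 1 gene lower. Without 1 library at a time the higher genes numbered 2 to 3, the lower ones 1 to 6, other pathway genes 3 to 7, hormone genes 5 to 12 and all called entries 1246 (without emodin 4) to 2200. Ugp2 crossed the threshold in 7 of 13 settings. Tpi1 did so with quality weights. Other pathway genes called numbered 3 with total counts, 10 with DESeq2, 2 with the rank-sum test and 3 with no filter, and hormone genes 6 with no filter. Gpd2 and Crtc2 were among the calls lost with the rank-sum test, and Creb3l3 and Crtc2 among those lost with the replicate block. Upper quartile scaling gave 897 higher and 950 lower entries, against 1102 and 782.

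Replicate numbers did not pair the libraries (correlations of same-numbered deviations -0.161 to 0.267, with 2 of 8 numbers correlating best with their own), so the replicate block, with 6 hormone genes and 1263 entries called, uses a shared number only.

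Log2 fold changes turned sign, none of them called by edgeR with all 16 libraries, and the cause was not tested except that leaving out emodin 7 and vehicle 2 removes the muscle RNA and that DESeq2 replaced outlying counts of Hk2 in both libraries and of Aldoa and Gys1 in vehicle 2. Without that pair Hk2 was 0.498, Aldoa 0.403, Pkm 0.39, Gys1 0.903, Gpi1 0.0163, Srebf1 0.0691, Pck1 -0.0301 and Ppp1r3b -0.00942. With DESeq2, Hk2 was 0.425, Aldoa 0.416 (adjusted p = 0.00039) and Gys1 1.22 (adjusted p = 0.00358). With limma-voom, Hk2 was 0.0869, Aldoa 0.205, Pkm 0.0676 and Gys1 0.549. With quality weights, Hk2 was 0.184, Aldoa 0.268, Pkm 0.0401, Gys1 0.878, Gpi1 0.128, Pgam1 0.0266, Eno1 0.0201, Pdk2 0.0326, Fbp1 0.0386, Gys2 0.000256 and Srebf1 0.0351. With the rank-sum test, Hk2 was 0.0831, Aldoa 0.195, Pkm 0.0828, Gys1 0.377 and Pck1 -0.00485. With the replicate block, Hk2 was 0.383, Aldoa 0.218, Pkm 0.158, Gys1 0.688 and Pck1 -0.00297. Aldoa was 0.00979 with total counts and 0.00592 with no filter, and Pck1 -0.0123 with upper quartile scaling. Without 1 library at a time Hk2 ran from -1.84 to 1.37, Aldoa from -0.0702 to 0.455, Pkm from -0.401 to 0.482, Gys1 from -0.985 to 1.32, Gpi1 from -0.0864 to 0.0488, Pgam1 from -0.0601 to 0.0182, Pck1 from -0.0745 to 0.0966 and Srebf1 from -0.209 to 0.0333.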
